A study of Mus musculus with 36 samples.

Results

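The mitochondrial ribosome (mitoribosome) was followed through the genes of its proteins in mouse CD4 T cells treated with DFMO (difluoromethylornithine), which blocks ornithine decarboxylase, the enzyme that starts polyamine synthesis. The genes were taken by name: every symbol that starts with Mrpl (large subunit) or Mrps (small subunit) and a number, without pseudogene names. This gave 76 of the 20817 genes in the table, 47 with an Mrpl and 29 with an Mrps symbol, and all 76 passed the filter on low counts. Naive CD4 T cells (CD44- CD62L+ CD25-) of C57BL/6 mice were sorted from the spleen, activated through CD3 and CD28 on plates, and harvested after 68 h in medium that held 100 µM DFMO or its vehicle. Pathogenic Th17 cells (Th17p) received 25 ng/ml IL-6 with 20 ng/ml each of IL-1b and IL-23, non-pathogenic Th17 cells (Th17n) 25 ng/ml IL-6 with 2 ng/ml TGFb1, and induced regulatory T cells (iTreg) 2 ng/ml TGFb1 without IL-6. Each of the 6 groups holds 3 libraries, 1 per animal, so every lineage and treatment was sampled from the same 3 wild-type mice. These are cultures of sorted naive cells, and live cells were sorted before RNA was taken.

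Mitoribosomes sit inside mitochondria and translate the few proteins that mitochondrial DNA encodes, all of them subunits of the oxidative phosphorylation complexes. Their RNA comes from mitochondrial DNA, but all of their proteins are encoded in the nucleus, made in the cytosol and imported. T cells build up mitochondria after activation, and Th17 and regulatory T cells are known to differ in how they use respiration. Polyamines are linked to this machinery through eIF5A, a translation factor that carries hypusine, a residue made from the polyamine spermidine. Not every symbol tells the subunit: Mrps30 and Mrps18a encode proteins that structures place in the large subunit, and Mrps36 encodes a protein of the 2-oxoglutarate dehydrogenase complex.

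Depth ran from 8307633 to 13986923 estimated counts per library, of which the 76 genes took between 0.498% and 0.631%. Levels are given as CPM (a gene's share of its library's counts, scaled by TMM, a correction for composition) where a gene is compared between samples, and as TPM (scaled to transcript length) where genes are compared with each other. Values of single libraries are in the order of animals 1, 2 and 3. A change is printed as the log2 fold change ± its standard error, by edgeR's quasi-likelihood test, with n = 3 animals per group. "Rose", "fell", "higher" and "lower" are used only for a Benjamini-Hochberg adjusted p under 0.05 over all 11526 genes tested. The 3 T cell markers, Cd3e and Cd4 among them, summed to 536 to 902 CPM in every library. Foxp3, which defines regulatory T cells, stood at 435 ± 70.2 CPM (SD, n = 3) in vehicle-treated iTreg cells against 0.784 ± 0.740 in Th17p and 11.4 ± 0.401 in Th17n cells, and Il17a, the Th17 cytokine, at 0.0717 ± 0.124, 412 ± 103 and 214 ± 43.7 CPM in the same order. With DFMO, Il17a stood at 17.7 ± 7.97 CPM in Th17p and Foxp3 at 97.2 ± 19.5 CPM in Th17n cells. Summed markers of other cells were low in every library: 4.49 to 36.0 CPM for 6 B cell genes, 7.95 to 26.2 for 2 CD8 T cell genes, 0.735 to 9.44 for 4 NK genes, 0.461 to 5.51 for 5 myeloid genes with Lyz2 at 0, and 0 to 0.367 for 5 erythroid and platelet genes.

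Promoter stretches of 6 of the genes are shown first. No expression result below rests on them. Mrpl41, Mrpl20, Mrpl12 and Mrps22 rose with DFMO in all lineages under TMM scaling (Mrps22 was not called in iTreg cells without scaling factors or on log2(TPM + 1)). Mrpl45 fell in all lineages, and Mrpl17 fell in Th17p cells. Each stretch holds 150 bases before the RefSeq start (GRCm38.p6, gene strand, 5′ to 3′), ending at it or, where exon bases had to be left out, 24 bases (Mrpl12) and 12 bases (Mrpl17) before it. The places are chr2:24975099-24975248 (minus strand) for Mrpl41, chr4:155802728-155802877 (plus) for Mrpl20, chr11:120484463-120484612 (plus) for Mrpl12, chr9:98601680-98601829 (minus) for Mrps22, chr11:97315566-97315715 (plus) for Mrpl45 and chr7:105811100-105811249 (minus) for Mrpl17. Capitals mark matches to 5 motifs searched on both strands: NRF1 as GCGCATGCG, the same with any middle base as GCGCANGCG (which includes the first), ETS as CCGGAAG, YY1 as AAGATGGC and the E-box CACGTG.
Mrpl41: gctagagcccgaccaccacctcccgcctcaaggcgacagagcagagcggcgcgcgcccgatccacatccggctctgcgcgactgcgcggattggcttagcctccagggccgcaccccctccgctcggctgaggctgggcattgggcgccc
Mrpl20: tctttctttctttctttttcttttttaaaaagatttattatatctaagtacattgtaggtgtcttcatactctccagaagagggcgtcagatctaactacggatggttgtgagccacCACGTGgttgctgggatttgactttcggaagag
Mrpl12: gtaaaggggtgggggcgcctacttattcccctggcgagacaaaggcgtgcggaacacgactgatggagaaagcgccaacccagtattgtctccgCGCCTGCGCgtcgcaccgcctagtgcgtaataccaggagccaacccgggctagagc
Mrps22: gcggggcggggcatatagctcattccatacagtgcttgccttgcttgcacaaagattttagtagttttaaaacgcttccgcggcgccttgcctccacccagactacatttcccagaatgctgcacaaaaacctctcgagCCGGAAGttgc
Mrpl45: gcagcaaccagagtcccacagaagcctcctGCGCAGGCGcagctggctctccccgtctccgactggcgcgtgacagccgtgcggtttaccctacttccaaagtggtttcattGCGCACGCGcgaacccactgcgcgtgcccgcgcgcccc
Mrpl17: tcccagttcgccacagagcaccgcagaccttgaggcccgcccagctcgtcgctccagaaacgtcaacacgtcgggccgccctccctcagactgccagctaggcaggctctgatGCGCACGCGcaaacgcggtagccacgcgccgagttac
Mrpl20 holds an E-box from position -33, Mrps22 an ETS motif from -11 and Mrpl12 the NRF1 motif with another middle base from -80, counted back from the start. Mrpl45 holds that NRF1 form at -120 and again at -38, and Mrpl17 at -49, while the Mrpl41 stretch holds none of the 5. Of the other genes that fell, Mrpl1, Mrpl24, Mrps9 and Mrps36 have such stretches (not printed), and these hold none of the 5.

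RefSeq promoters of 300 bases (250 before and 50 after the start) were matched for 67 of the 76 genes and for 8832 of all genes tested. The NRF1 motif with any middle base stood in 15 of the 67 (22.4%, against 14.6% of all promoters) and its exact form in 10.4% against 4.0%. NRF1 is a known activator of nuclear genes for mitochondria. The ETS motif, which the mitochondrial regulator GABP binds, stood in 22 (32.8% against 19.3%), the YY1 motif in 12 (17.9% against 4.98%) and the E-box in 5 (7.46% against 10.4%). Among the 17 matched genes that rose in all lineages, 1 held the NRF1 motif with any middle base (5.88%), against 11 of the 28 that rose in none (39.3%). The YY1 motif stood in 23.5% and 14.3% of these groups, the ETS motif in 17.6% and 28.6%, and the E-box in 11.8% of the first and none of the second. The first group also had a median GC of 54.0% and 17 CpG dinucleotides per 300 bases, against 57.7% and 21 in the second. That grouping uses the expression results, so these are counts without a test. Another feature of the set is shared starts: 24 of the 76 genes (31.6%) begin within 500 bases of a protein-coding gene on the other strand, against 14.5% of 11081 tested protein-coding genes. Mrpl46 and Mrps11 form such a pair with each other, and the partners also include Fau for Mrpl49, Ndufs6 for Mrpl36 and Sars2 for Mrps12.

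DFMO shifted the set upward in both Th17 lineages. In Th17p cells 25 of the 76 genes rose (32.9%, against 15.9% of all genes) and 2 fell (2.63%, against 17.1%). In Th17n cells 35 rose (46.1%, against 22.8% of all genes) and 8 fell (10.5%, against 23.7%), where 46.4% of all genes were called in either direction. In iTreg cells 31 rose (40.8%, against 18.3% of all genes) and 5 fell (6.58%, against 19.2%) under TMM scaling. Without scaling factors, however, 16 rose and 14 fell (11.1% and 28.5% of all genes did). On log2(TPM + 1) 15 rose and 18 fell (8.88% and 29.8% of all genes). The median log2 fold change of the set was 0.17, 0.20 and 0.15 in Th17p, Th17n and iTreg cells, where the medians over all genes were 0.00, -0.02 and -0.04. By animal, the set's median was 0.21, 0.03 and 0.27 in Th17p, 0.29, 0.16 and 0.19 in Th17n, and 0.14, 0.21 and 0.17 in iTreg cells. Animal 2 in Th17p cells was thus near no shift. Without animal 1 or without animal 3, 15 genes rose in Th17p cells (19.7%, against 10.2% and 10.8% of all genes). Without animal 2, 16 rose in iTreg cells (21.1%, against 10.5% of all genes). The number that fell in Th17n cells dropped to 3 to 5, and in iTreg cells to 2, when any 1 animal was left out. Since these are bulk libraries, fewer cells of a type and less RNA per cell cannot be told apart.

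The iTreg result depended on the scale, and its size relative to other genes did so less. The median over all genes in iTreg cells was -0.04 with TMM, -0.21 without scaling factors and -0.19 on log2(TPM + 1). The set's own median stood at 0.15, -0.01 and -0.06 in that order. The distance between the set's median and that of all genes was 0.20 with TMM, 0.20 without scaling factors and 0.13 on log2(TPM + 1). In the same order, all genes that rose made up 18.3%, 11.1% and 8.88% of those tested, and members 40.8%, 21.1% and 19.7%. All genes that fell made up 19.2%, 28.5% and 29.8%, and members 6.58%, 18.4% and 23.7%. The TMM factors of the libraries were 1.07 to 1.09 in vehicle-treated and 0.957 to 0.969 in DFMO-treated iTreg cells.

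Summed over the 76 genes, the level in Th17p cells was 5430.4, 5649 and 5219 CPM in vehicle and 6523, 5788 and 6091 CPM with DFMO. In Th17n cells it was 5199, 5237 and 5058.5 CPM in vehicle and 6282, 5795 and 5794 CPM with DFMO. In iTreg cells it was 5813, 5362 and 5352 CPM in vehicle and 6484, 6539.6 and 6357 CPM with DFMO. The groups did not overlap in any lineage on this scale. As a share of all listed counts, with no scaling factors, the means were 0.553% and 0.606% in Th17p (vehicle, then DFMO), 0.502% and 0.583% in Th17n, and 0.595% and 0.622% in iTreg cells. On this share the iTreg groups overlapped, at 0.6225%, 0.584% and 0.578% in vehicle and 0.628%, 0.626% and 0.614% with DFMO. The Th17 groups did not. The listed genes as a whole took a larger part of the TPM scale with DFMO, with means of 75.9% and 79.9% in Th17p, 73.8% and 77.6% in Th17n, and 73.9% and 76.6% in iTreg cells. The part of this shift in the results was not tested.

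**Figure D1:**
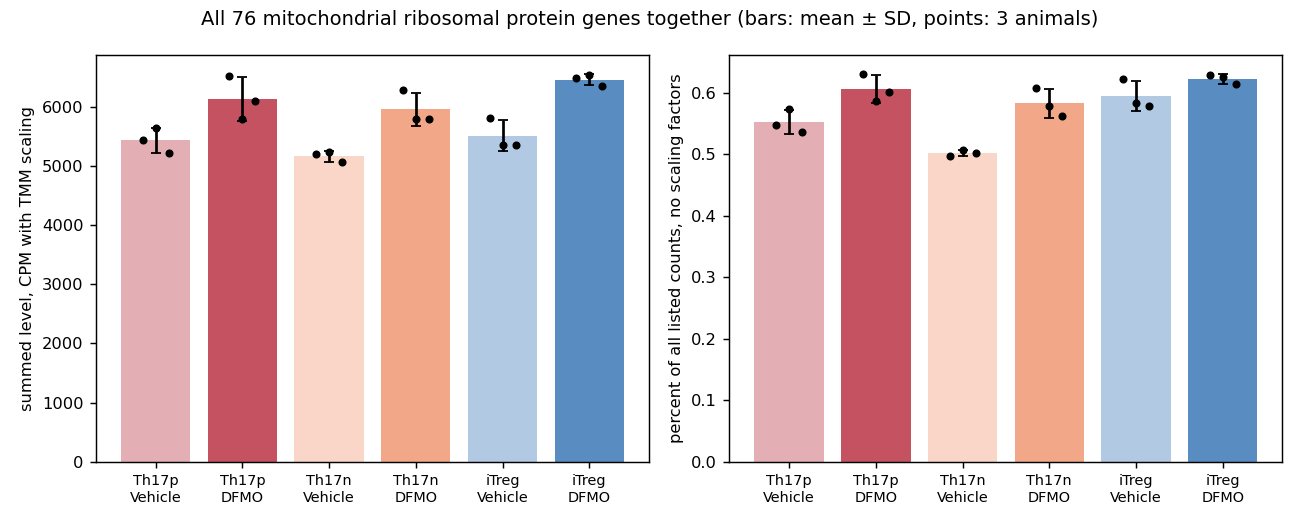
Summed level of the 76 mitochondrial ribosomal protein genes in each library, as CPM with TMM scaling (left) and as a percent of all listed counts without scaling factors (right). Bars are means with SD and points are the 3 animals. On the TMM scale DFMO libraries lie above vehicle libraries in each lineage. Without scaling factors the iTreg groups overlap, with means of 0.595% in vehicle and 0.622% with DFMO.

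Many of the genes were called in more than 1 lineage. Under TMM scaling DFMO raised 18 of the 76 genes in all 3 lineages (23.7%, against 8.57% of all genes) and lowered 1, Mrpl45, in all 3 (8.25% of all genes fell in all 3), and 23 were called in none. Of the 25 genes that rose in Th17p cells, 24 also rose in Th17n and 18 in iTreg cells, and of the 35 that rose in Th17n cells, 24 rose in iTreg cells. No member was called in opposite directions under TMM scaling. Across the 76 genes the log2 fold changes had a Pearson r of 0.83 between Th17p and Th17n, 0.65 between Th17p and iTreg, and 0.54 between Th17n and iTreg cells. These values describe genes measured in cells of the same 3 animals. Pairwise overlaps, opposite calls and r were not taken over all genes, so whether they are particular to this set is not known. The test was run under 12 settings in all, among them other scalings and each animal left out. Under each of them 11 genes rose in all lineages: Mrpl11, Mrpl12, Mrpl13, Mrpl41, Mrpl42, Mrpl49, Mrpl50, Mrpl51, Mrps6, Mrps7 and Mrps31. The share of all genes that did so was not taken, so whether this count is particular to the set is not known. The other 7 of the 18 were Mrpl3, Mrpl16, Mrpl20, Mrpl37, Mrpl46, Mrps17 and Mrps22. Of these, Mrpl3, Mrpl16, Mrpl37, Mrpl46 and Mrps22 were not called in iTreg cells without scaling factors or on log2(TPM + 1).

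**Figure D2:**
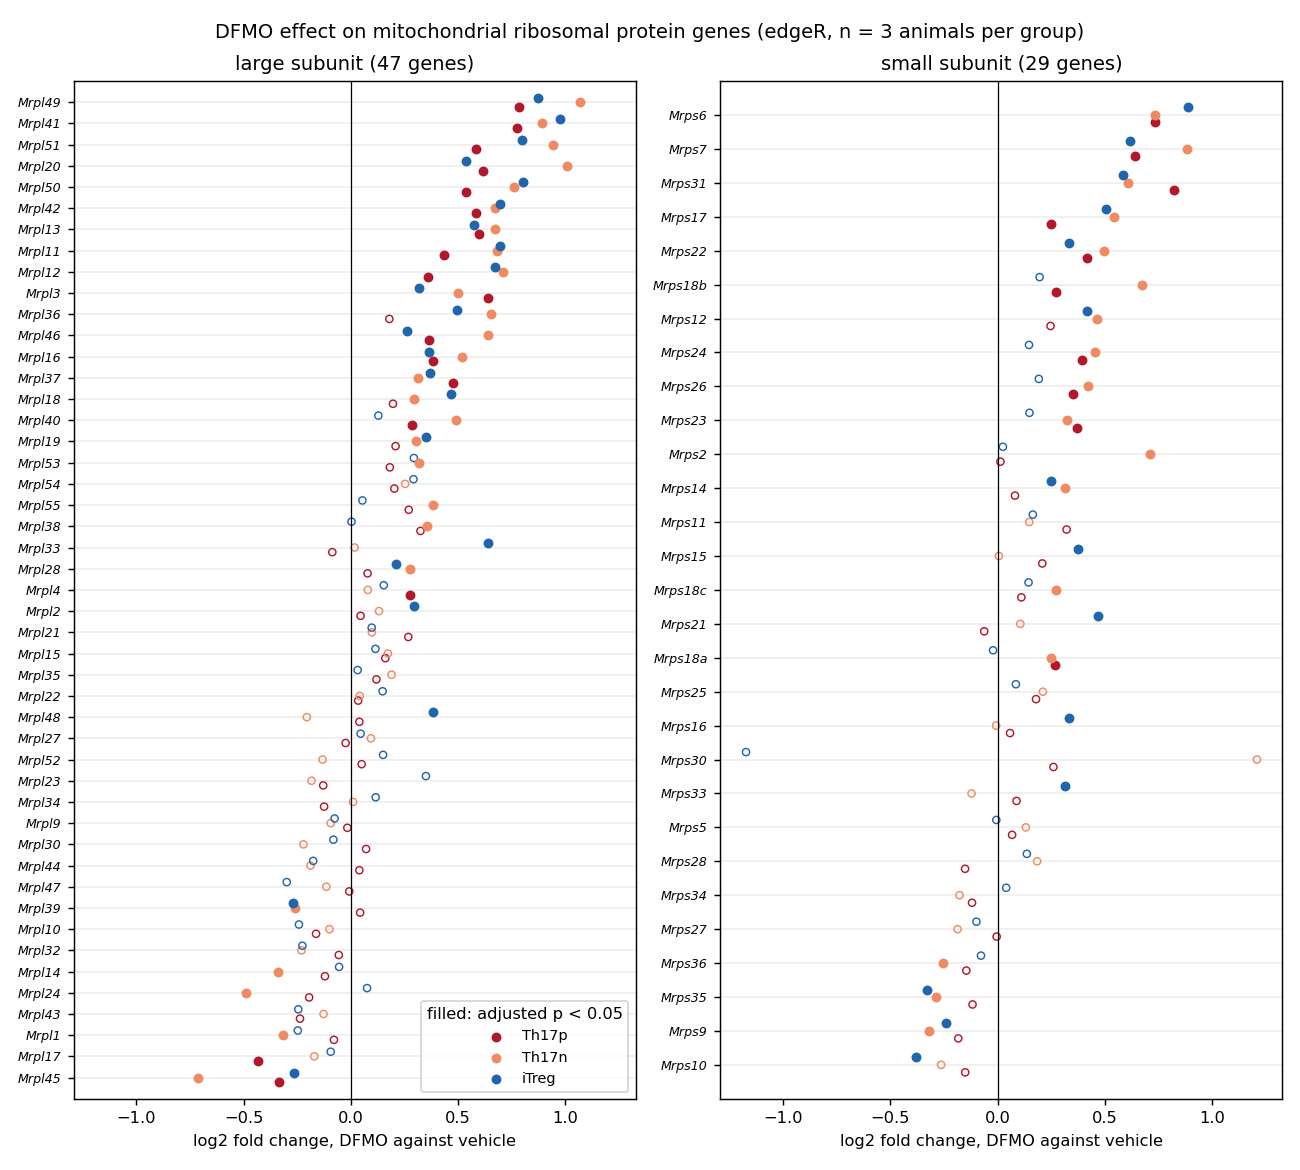
Log2 fold change with DFMO (x axis) of each of the 47 Mrpl and 29 Mrps genes (y axis, split by the subunit in the symbol), from edgeR with TMM scaling. Colours are lineages and filled points passed an adjusted p under 0.05. Most filled points lie right of 0. The counts for iTreg cells become 16 above and 14 below 0 without scaling factors (11.1% and 28.5% of all genes).

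Among the 47 genes with an Mrpl symbol, 15 rose and 2 fell in Th17p cells (all genes 15.9% and 17.1%). Their counts were 21 rises with 5 falls in Th17n cells (all genes 22.8% and 23.7%), and 20 with 2 in iTreg cells under TMM scaling (all genes 18.3% and 19.2%). Mrpl49 (chr19:6053622-6057785, positions here and below from GENCODE M21, GRCm38), a large subunit protein with no bacterial counterpart, stood in Th17p cells at 48.3, 61.0 and 51.4 CPM in vehicle and 95.2, 89.5 and 92.5 CPM with DFMO. The Th17n values were 48.5, 44.7 and 47.6 CPM in vehicle and 105, 97.3 and 93.2 CPM with DFMO. The iTreg values were 72.5, 47.2 and 58.1 CPM in vehicle and 107, 114 and 105 CPM with DFMO. Vehicle and DFMO libraries did not overlap in any lineage. Its log2 fold change was 0.79 ± 0.12 (adjusted p = 3.88e-05) in Th17p, 1.07 ± 0.12 (adjusted p = 3.63e-07) in Th17n and 0.87 ± 0.12 (adjusted p = 7.1e-06) in iTreg cells (edgeR, quasi-likelihood). It shares 91 exon bases with Syvn1 on the other strand, and the strand of the libraries is not given in the sources used here.

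Mrpl41 (chr2:24974117-24975098), another large subunit protein without a bacterial counterpart, is 1 of the genes whose promoter stretch is printed above and shares no exon bases with another gene. It stood in Th17p cells at 32.7, 29.2 and 34.3 CPM in vehicle and 55.8, 53.1 and 55.9 CPM with DFMO. Th17n libraries held it at 30.4, 29.6 and 30.9 CPM in vehicle and 59.3, 53.1 and 56.7 CPM with DFMO. In iTreg cells they were 46.6, 36.3 and 35.9 CPM in vehicle and 82.1, 81.4 and 69.8 CPM with DFMO. All DFMO libraries lay above all vehicle libraries, across lineages too. The log2 fold change in edgeR was 0.78 ± 0.11 (adjusted p = 2.31e-05) in Th17p, 0.89 ± 0.11 (adjusted p = 1.61e-06) in Th17n and 0.98 ± 0.11 (adjusted p = 8.33e-07) in iTreg cells.

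Mrpl20, with a counterpart in the bacterial large subunit, had lower vehicle values in Th17n cells than in Th17p cells. Its values were 119, 107 and 104 CPM in vehicle and 189, 154 and 163 CPM with DFMO in Th17p cells. They were 72.0, 81.3 and 74.2 CPM in vehicle and 168, 146 and 144 CPM with DFMO in Th17n cells and 131, 84.8 and 90.9 CPM in vehicle and 161, 146 and 138 CPM with DFMO in iTreg cells. The groups did not overlap within a lineage, and vehicle-treated iTreg cells of animal 1 came close to the DFMO values. In edgeR the log2 fold change was 0.62 ± 0.13 (adjusted p = 0.000881) in Th17p, 1.01 ± 0.13 (adjusted p = 2.23e-06) in Th17n and 0.54 ± 0.13 (adjusted p = 0.00219) in iTreg cells. Without animal 2, the iTreg call was lost, which is why Mrpl20 is not among the 11. Vehicle-treated Th17n cells were lower by 0.53 ± 0.13 (adjusted p = 0.00556) against Th17p cells, and the DFMO values of the Th17 lineages overlapped. The Th17n effect exceeded that in Th17p cells by 0.39 ± 0.18, which did not pass the test (edgeR adjusted p = 0.239).

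Mrpl51, another protein without a bacterial counterpart, stood in Th17p cells at 44.3, 52.4 and 50.2 CPM in vehicle and 79.3, 71.3 and 69.7 CPM with DFMO. It stood in Th17n cells at 43.2, 44.6 and 40.7 CPM in vehicle and 92.2, 75.3 and 79.7 CPM with DFMO and in iTreg cells at 59.6, 52.3 and 46.0 CPM in vehicle and 95.2, 86.2 and 93.0 CPM with DFMO. No lineage had overlapping groups. Its log2 fold change in edgeR was 0.58 ± 0.11 (adjusted p = 0.000287) in Th17p, 0.94 ± 0.11 (adjusted p = 4.87e-07) in Th17n and 0.80 ± 0.11 (adjusted p = 6.45e-06) in iTreg cells. Mrpl12 encodes the stalk protein that brings translation factors to the large subunit. In Th17p cells it stood at 102, 107 and 91.9 CPM in vehicle and 130.3, 129 and 125 CPM with DFMO. In Th17n cells it stood at 81.7, 91.1 and 93.8 CPM in vehicle and 148, 147 and 140.3 CPM with DFMO. iTreg libraries held it at 107, 103 and 103 CPM in vehicle and 156, 175 and 168 CPM with DFMO. For Mrpl12, too, no lineage had overlapping groups. The log2 fold change of Mrpl12 in edgeR was 0.36 ± 0.08 (adjusted p = 0.00129) in Th17p, 0.71 ± 0.08 (adjusted p = 2.97e-07) in Th17n and 0.67 ± 0.08 (adjusted p = 1.08e-06) in iTreg cells. Mrpl50, Mrpl42, Mrpl13 and Mrpl11, also of the large subunit, rose by 0.54, 0.59, 0.60 and 0.44 in Th17p, by 0.76, 0.67, 0.67 and 0.68 in Th17n, and by 0.80, 0.70, 0.57 and 0.70 in iTreg cells. Mrpl3, which lies near the peptidyl transferase centre of the large subunit and is a human mitochondrial disease gene, rose by 0.64, 0.50 and 0.32 in Th17p, Th17n and iTreg cells, the last not called without scaling factors or on log2(TPM + 1).

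**Figure D3:**
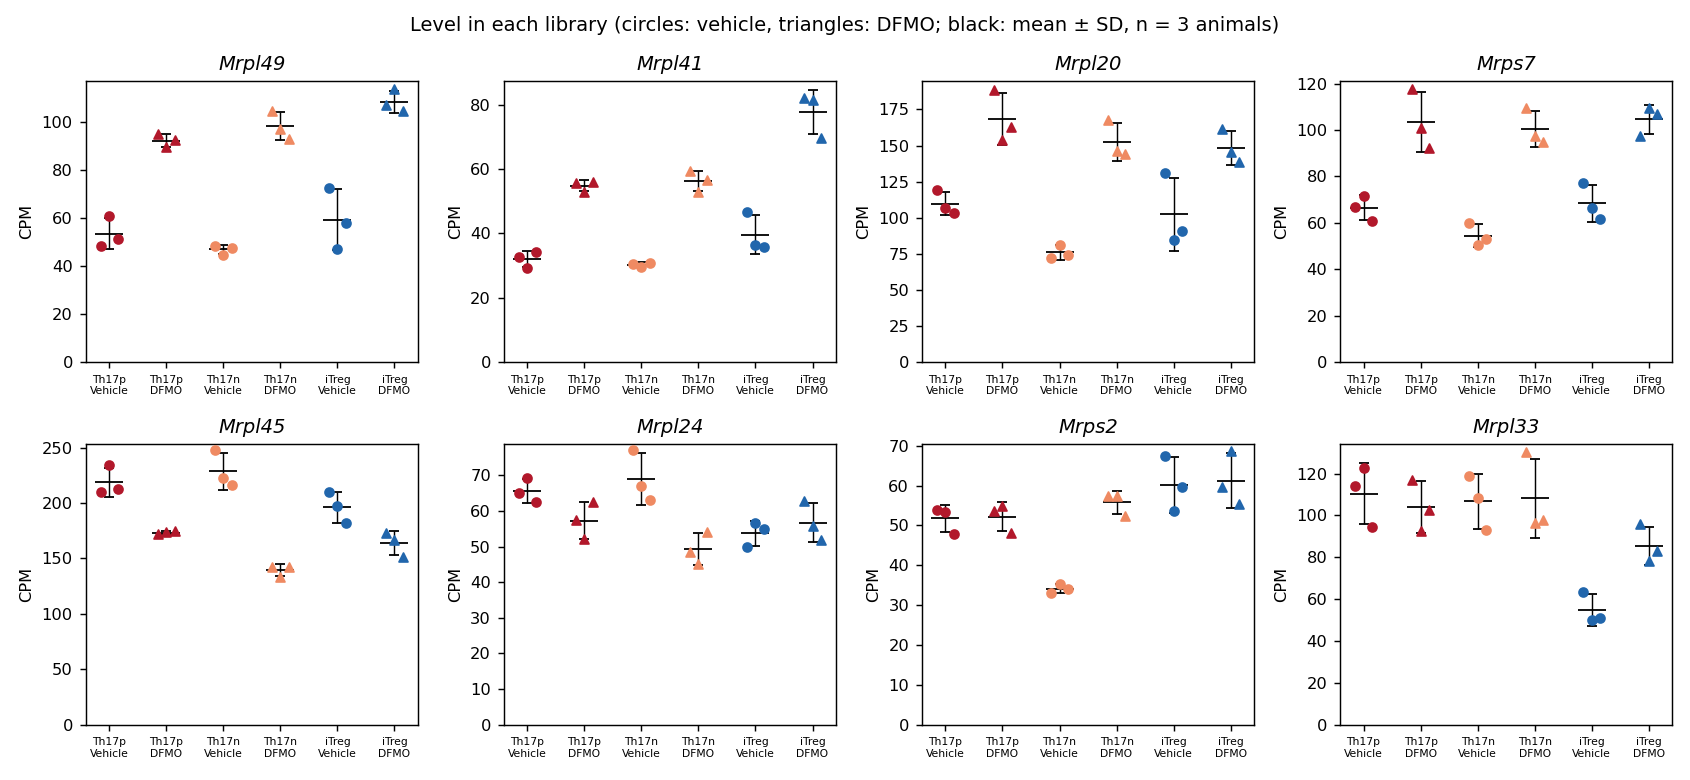
CPM (TMM scaling) in each library of 8 mitochondrial ribosomal protein genes. Circles are vehicle, triangles are DFMO, black marks are the mean with SD over 3 animals. Mrpl49, Mrpl41, Mrpl20 and Mrps7 separate by treatment in every lineage, Mrpl45 lies lower with DFMO, and Mrps2, Mrpl24 and Mrpl33 differ between lineages.

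Among the 29 genes with an Mrps symbol, which include Mrps18a, Mrps30 and Mrps36, 10 rose and none fell in Th17p cells (all genes 15.9% and 17.1%). In Th17n cells 14 rose and 3 fell (all genes 22.8% and 23.7%), and in iTreg cells 11 rose and 3 fell under TMM scaling (all genes 18.3% and 19.2%). Mrps7 (chr11:115603925-115608036), which lies in the head of the small subunit, stood in Th17p cells at 66.9, 71.7 and 60.8 CPM in vehicle and 118, 101 and 92.2 CPM with DFMO. For Th17n cells the values were 60.1, 50.3 and 53.2 CPM in vehicle and 109, 97.3 and 94.8 CPM with DFMO. In iTreg cells it stood at 77.4, 66.3 and 61.6 CPM in vehicle and 97.7, 109 and 107 CPM with DFMO. The treated and untreated libraries were apart in all lineages. Its log2 fold change in edgeR was 0.64 ± 0.11 (adjusted p = 0.000136) in Th17p, 0.88 ± 0.11 (adjusted p = 1.45e-06) in Th17n and 0.62 ± 0.11 (adjusted p = 0.000148) in iTreg cells. Mrps7 shares exon bases with Gga3 (127) and Mif4gd (119) on the other strand.

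Mrps6 (chr16:92058270-92112227), also with a bacterial counterpart, was the second most abundant gene of the set by TPM. In Th17p cells it stood at 117, 124 and 126 CPM in vehicle and 218, 184 and 209.6 CPM with DFMO. The Th17n values were 110.2, 130.4 and 135 CPM in vehicle and 219, 184 and 224 CPM with DFMO. In iTreg cells they were 167, 148 and 144 CPM in vehicle and 283, 287 and 277 CPM with DFMO. DFMO libraries lay above vehicle libraries throughout, and the highest values were those of DFMO-treated iTreg cells. The log2 fold change in edgeR was 0.73 ± 0.09 (adjusted p = 5.08e-06) in Th17p, 0.74 ± 0.09 (adjusted p = 1.6e-06) in Th17n and 0.89 ± 0.09 (adjusted p = 2.72e-07) in iTreg cells. Mrps6 shares exon bases on the same strand with Slc5a3 (159), an inositol transporter gene, and Gm49711 (305), so the authors' counting could split reads between them.

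Mrps31 (chr8:22411361-22429665), a small subunit protein found in mitochondria and not in bacteria, had the largest called rise of the set in Th17p cells (edgeR, TMM scaling). It stood there at 22.8, 29.1 and 27.5 CPM in vehicle and 52.0, 43.3 and 45.1 CPM with DFMO. Th17n libraries held it at 25.8, 27.2 and 26.8 CPM in vehicle and 43.9, 33.6 and 44.5 CPM with DFMO and in iTreg cells at 29.8, 31.0 and 27.8 CPM in vehicle and 43.1, 43.1 and 46.5 CPM with DFMO. The groups were apart in each lineage, least so in Th17n cells through animal 2. In edgeR the log2 fold change was 0.82 ± 0.13 (adjusted p = 5.19e-05) in Th17p, 0.61 ± 0.13 (adjusted p = 0.000551) in Th17n and 0.58 ± 0.13 (adjusted p = 0.00106) in iTreg cells. Mrps22, a human mitochondrial disease gene, rose by 0.41, 0.50 and 0.33 in Th17p, Th17n and iTreg cells, the last not called without scaling factors or on log2(TPM + 1). Mrps12, the small subunit protein closest to the decoding site, rose by 0.47 in Th17n and 0.41 in iTreg cells (not called without scaling factors or on log2(TPM + 1)) and had 0.25 in Th17p cells (edgeR adjusted p = 0.0892).

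Mrpl45 (chr11:97315716-97329920) went the other way. Its protein sits at the exit of the large subunit and ties the ribosome to the inner membrane. In Th17p cells it stood at 209.6, 234 and 212 CPM in vehicle and 172, 174 and 174 CPM with DFMO. In Th17n cells it stood at 248, 222 and 216 CPM in vehicle and 142, 133 and 142 CPM with DFMO. For iTreg cells the values were 210.0, 197 and 182 CPM in vehicle and 173, 167 and 152 CPM with DFMO. DFMO libraries lay below vehicle libraries in every lineage and lowest in Th17n cells. The log2 fold change in edgeR was -0.33 ± 0.08 (adjusted p = 0.0023) in Th17p, -0.72 ± 0.08 (adjusted p = 2.52e-07) in Th17n and -0.26 ± 0.08 (adjusted p = 0.0112) in iTreg cells. The fall in Th17n cells was larger than in Th17p cells by 0.38 (edgeR adjusted p = 0.0495) and than in iTreg cells by 0.45 (adjusted p = 0.0101), and neither difference was called without scaling factors (adjusted p = 0.0739 and 0.0767). The first was lost with any 1 animal left out, the second without animal 1 (0.0934) or animal 2 (0.178). Leaving out any 1 animal ended the call in iTreg cells, and leaving out animal 2 ended it in Th17p cells. Mrpl45 shares no exon bases with another gene.

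Other members that fell did so in fewer lineages. Mrpl17, a large subunit protein with a bacterial counterpart, stood in Th17p cells at 129.7, 136 and 129.8 CPM in vehicle and 95.6, 100.2 and 97.2 CPM with DFMO, groups that did not overlap. Its log2 fold change in edgeR was -0.43 ± 0.08 (adjusted p = 0.000284) there, -0.17 ± 0.08 (adjusted p = 0.0861) in Th17n and -0.09 ± 0.08 (adjusted p = 0.381) in iTreg cells. In Th17n cells Mrpl24 fell by 0.49, Mrpl14 by 0.34, Mrps9 by 0.32, Mrpl1 by 0.32, Mrps35 by 0.29, Mrpl39 by 0.26 and Mrps36 by 0.25. Of these, Mrpl24 and Mrpl1 were also called on log2(TPM + 1), as was Mrpl45, and Mrpl24 and Mrpl45 were called without any 1 animal. In iTreg cells Mrps10 fell by 0.38, Mrps35 by 0.33, Mrpl39 by 0.27 and Mrps9 by 0.24 on the TMM scale. None of these 4 was called in every fit that left out an animal.

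Mrps2 (chr2:28468066-28471178) differed between lineages both in vehicle and in its DFMO effect. It encodes a small subunit protein with a bacterial counterpart and is a human mitochondrial disease gene. In Th17p cells it stood at 53.9, 53.3 and 48.0 CPM in vehicle and 53.6, 55.0 and 48.0 CPM with DFMO. For Th17n cells the values were 33.0, 35.3 and 34.1 CPM in vehicle and 57.5, 57.4 and 52.5 CPM with DFMO. The iTreg values were 67.5, 53.5 and 59.7 CPM in vehicle and 59.6, 68.7 and 55.3 CPM with DFMO. The vehicle-treated Th17n libraries were below all others, and with DFMO the Th17n libraries overlapped those of both other lineages. In vehicle, Th17n cells were lower by 0.60 ± 0.11 (adjusted p = 0.00053) against Th17p cells and iTreg cells higher by 0.82 ± 0.11 (adjusted p = 5.04e-06) against Th17n cells (edgeR). The log2 fold change with DFMO in edgeR was 0.71 ± 0.11 (adjusted p = 2.05e-05) in Th17n, against 0.01 ± 0.11 (adjusted p = 0.938) in Th17p and 0.02 ± 0.11 (adjusted p = 0.883) in iTreg cells. The Th17n effect was higher than that in Th17p cells by 0.70 ± 0.15 (edgeR adjusted p = 0.0112) and than that in iTreg cells by 0.68 ± 0.15 (adjusted p = 0.00574). With any 1 animal left out, the difference from Th17p cells was 0.65 to 0.73, with an edgeR adjusted p of 0.0596 to 0.15. The difference from iTreg cells was 0.54 to 0.87 in these fits, and its call was lost without animal 1 (0.159).

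Mrps18b was also lower in vehicle-treated Th17n than Th17p cells, but unlike Mrps2 it rose in both Th17 lineages. It is 1 of 3 mammalian copies of a bacterial small subunit gene, with Mrps18a and Mrps18c. It stood at 119.8, 132 and 123 CPM in vehicle and 162, 138 and 152 CPM with DFMO in Th17p cells. The Th17n values were 91.7, 93.3 and 98.0 CPM in vehicle and 156, 147 and 148 CPM with DFMO. iTreg libraries held it at 107, 96.5 and 98.6 CPM in vehicle and 104, 129.7 and 112 CPM with DFMO. The iTreg groups overlapped and the Th17 groups did not. Its log2 fold change in edgeR was 0.27 ± 0.09 (adjusted p = 0.0198) in Th17p, 0.67 ± 0.09 (adjusted p = 2.38e-06) in Th17n and 0.20 ± 0.09 (adjusted p = 0.0851) in iTreg cells. The Th17n effect was higher than the iTreg effect by 0.48 ± 0.12 (edgeR adjusted p = 0.0151), a call lost without animal 1 (0.239) or animal 3 (0.0783). Its difference from the Th17p effect was not called. The copy Mrps18a rose by 0.27 in Th17p and 0.25 in Th17n cells and had -0.02 in iTreg cells (edgeR adjusted p = 0.87). The copy Mrps18c rose by 0.27 in Th17n cells and had 0.11 and 0.14 in Th17p and iTreg cells (adjusted p = 0.434 and 0.293).

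Mrpl33 (chr5:31596935-31664384), a short protein of the large subunit, had the highest mean TPM of the set. In Th17p cells it stood at 114, 123 and 94.3 CPM in vehicle and 117, 92.4 and 103 CPM with DFMO. Th17n libraries held it at 119, 109 and 92.9 CPM in vehicle and 130.1, 96.6 and 97.6 CPM with DFMO. In iTreg cells it stood at 63.6, 49.9 and 51.1 CPM in vehicle and 95.7, 78.1 and 82.9 CPM with DFMO. Vehicle-treated iTreg libraries were below all other libraries, while the Th17 groups overlapped with and without DFMO. In vehicle, iTreg cells were lower by 1.01 ± 0.14 (adjusted p = 1.13e-05) against Th17p and lower by 0.96 ± 0.14 (adjusted p = 1.75e-05) against Th17n cells (edgeR). DFMO gave 0.64 ± 0.14 (adjusted p = 0.00113) in iTreg cells, called under every scaling, against -0.09 ± 0.14 (adjusted p = 0.665) in Th17p and 0.02 ± 0.14 (adjusted p = 0.93) in Th17n cells (edgeR). The Th17p effect was lower than the iTreg effect by 0.73 ± 0.20 (edgeR adjusted p = 0.0285), a call lost without animal 2 (adjusted p = 0.357) or animal 3 (0.0639). The Th17n effect was lower by 0.62 ± 0.20 (edgeR adjusted p = 0.0416), which was not called without scaling factors (0.0944), without animal 2 (0.295) or without animal 3 (0.106). This comparison of Mrpl33 was singled out after its values were seen. Mrpl33 shares 261 exon bases on the same strand with Gm43809.

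Mrpl24, a large subunit protein that starts assembly in bacteria, and Mrpl48 also differed between Th17n and iTreg cells. Mrpl24 stood at 77.3, 66.9 and 63.1 CPM in vehicle and 48.5, 45.1 and 54.0 CPM with DFMO in Th17n cells and at 49.8, 56.6 and 54.8 CPM in vehicle and 62.7, 55.8 and 51.8 CPM with DFMO in iTreg cells. Mrpl48 stood at 57.1, 62.1 and 51.6 CPM in vehicle and 55.5, 49.0 and 43.7 CPM with DFMO in Th17n cells and at 46.3, 47.4 and 51.6 CPM in vehicle and 60.5, 68.3 and 60.8 CPM with DFMO in iTreg cells. For Mrpl24 the groups were apart in Th17n cells, and for Mrpl48 in iTreg cells. The Th17n effect was lower than the iTreg effect by 0.56 ± 0.15 for Mrpl24 (edgeR adjusted p = 0.0198) and by 0.59 ± 0.15 for Mrpl48 (adjusted p = 0.0157). Neither was called without scaling factors (adjusted p = 0.0762 and 0.064) or without animal 1 (0.36 and 0.0749) or animal 2 (0.164 and 0.294). Under TMM scaling, 2 members had a higher effect in Th17n than in iTreg cells (5.45% of all genes did) and 5 a lower one (6.66%). Without scaling factors 7 were higher and none lower (13.1% and 3.9% of all genes). On log2(TPM + 1) 23 were higher and none lower (18.7% and 3.49% of all genes). The medians over all genes were 0.21 and 0.25 in these settings, against 0.04 with TMM. The fifth gene with the lower effect was Mrps33 (-0.43, edgeR adjusted p = 0.0348), named after its values were seen. Its call was lost without scaling factors (0.152) and with any 1 animal left out (0.0932 to 0.236). Between Th17n and Th17p cells 1 was higher (2.63% of all genes) and 1 lower (2.35%), and between Th17p and iTreg cells none was higher (3.32%) and 1 lower (3.52%, with 6.85% called in all). Apart from the counts on log2(TPM + 1), no more than 7 of the 76 genes were called in 1 direction.

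Mrpl44, a human mitochondrial disease gene of the large subunit, was not called in any lineage, nor were Mrps34 and Mrps5 of the small subunit. Mrpl44 had a log2 fold change of 0.04, -0.19 and -0.18 in Th17p, Th17n and iTreg cells (edgeR adjusted p = 0.755, 0.0757 and 0.111). Mrps34, another disease gene, had -0.12, -0.18 and 0.04 (adjusted p = 0.371, 0.144 and 0.782), and Mrps5 0.07, 0.13 and -0.01 (0.602, 0.25 and 0.97). Mrps16, also a disease gene, had 0.06 and -0.01 in the Th17 lineages (adjusted p = 0.74 and 0.97) and rose by 0.33 in iTreg cells with TMM, a call lost without scaling factors or on log2(TPM + 1). Mrps30 had the widest spread of the set. With DFMO its level was 8.53, 4.68 and 34.3 CPM in Th17n and 3.60, 3.90 and 14.9 CPM in iTreg cells, against 6.47, 4.81 and 9.20 and 11.9, 11.9 and 27.3 CPM in vehicle. Animal 3 was the highest in each of these groups. Its log2 fold changes, 0.26 ± 0.74, 1.21 ± 0.76 and -1.17 ± 0.75 in Th17p, Th17n and iTreg cells, did not pass the test (edgeR adjusted p = 0.821, 0.216 and 0.25). Mrps30 shares 623 exon bases with a protein-coding gene on the other strand.

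The vehicle-treated lineages were compared next. Between Th17n and Th17p cells 3 of the 76 genes were higher (9.47% of all genes) and 6 lower (10.5%), with a median of -0.09. Without scaling factors 1 was higher and 15 lower (7.13% and 13.6% of all genes). On log2(TPM + 1) 1 was higher and 18 lower (5.6% and 15.5% of all genes). Mrps2, Mrpl20, Mrpl36, Mrps18b, Mrpl46 and Mrps14 were lower in Th17n cells, by 0.60, 0.53, 0.49, 0.41, 0.32 and 0.28, and Mrpl14, Mrpl48 and Mrpl30 higher by 0.43, 0.35 and 0.27. With DFMO, which is measured against the same Th17n vehicle libraries, the first 6 rose in Th17n cells by 0.71, 1.01, 0.65, 0.67, 0.64 and 0.31. Between iTreg and Th17n cells 19 were higher (18.4% of all genes) and 3 lower (18.9%, with 37.3% called in all), with a median of 0.13. That count became 38 higher and 1 lower without scaling factors (27.6% and 13.2% of all genes), which moved the median of all genes by 0.15. Without animal 1 it became 5 higher and 1 lower (11.4% and 12.4% of all genes). The 3 vehicle comparisons share libraries with each other. Leading members were Mrps2 (0.82), Mrpl13 (0.62), Mrpl16 (0.46), Mrpl20 (0.43) and Mrps5 (0.42). Between iTreg and Th17p cells 8 were higher (14.5% of all genes) and 3 lower (15.7%, with 30.2% called in all), with a median of 0.06. Leaving out any 1 animal left 1 to 4 higher (9.37% to 10.7% of all genes). Mrpl13 was higher by 0.58, Mrps24 by 0.40, Mrps6 by 0.32, Mrpl16 by 0.32 and Mrpl41 by 0.30, and Mrpl1 and Mrps18b were lower by 0.34 and 0.31 besides Mrpl33. Only Mrpl13 and Mrpl33 of these 11 were called with each animal left out in turn.

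Per transcript length the levels of the 76 genes spread widely. The mean over all 18 libraries was highest for Mrpl33 (326 TPM), Mrps6 (284 TPM) and Mrpl30 (269 TPM) and lowest for Mrps30 (7.69 TPM), Mrps25 (12.4 TPM) and Mrpl11 (13.8 TPM). Mrpl33 ran from 179 to 426 TPM over the libraries, Mrps6 from 154 to 426 TPM and Mrpl30 from 240.3 to 335 TPM. These ranges overlap, so the order of the top 3 is not firm. In vehicle the median gene stood at 66.8 ± 4.19, 60.3 ± 3.67 and 71.7 ± 2.19 TPM for Th17p, Th17n and iTreg cells (SD, n = 3), and at 71.9 ± 1.36, 69.3 ± 3.28 and 67.7 ± 5.06 TPM with DFMO.

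**Figure D4:**
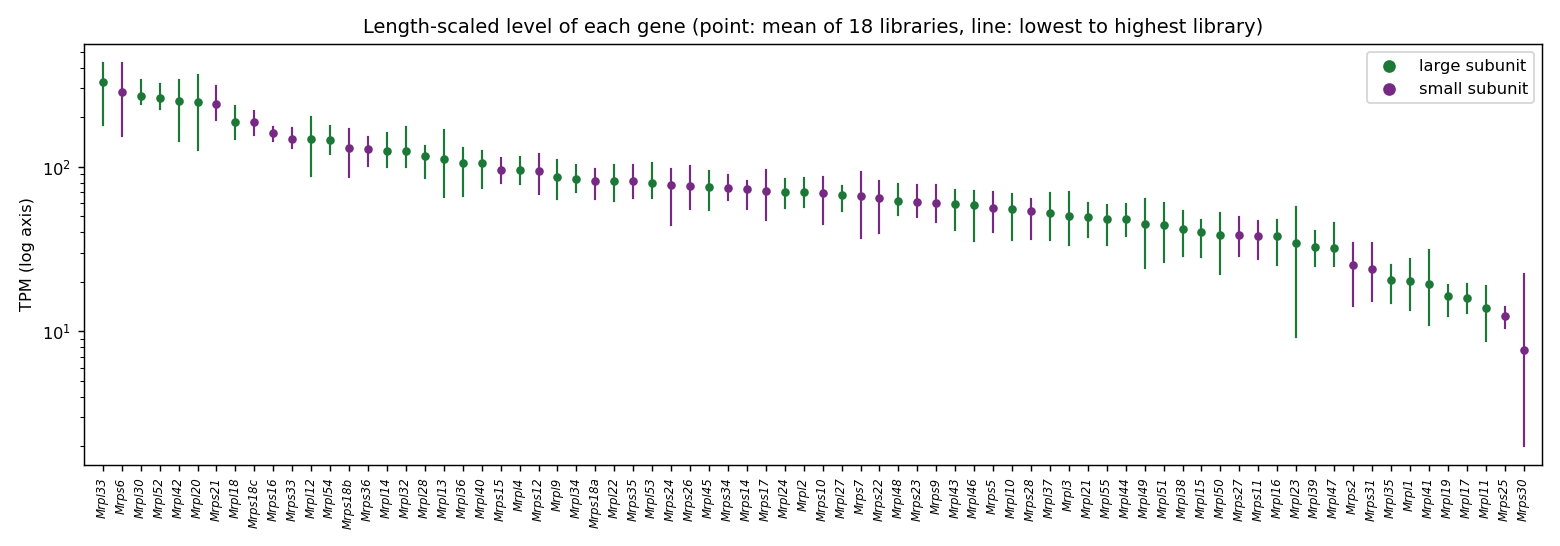
TPM (log axis) of the 76 genes in order of their mean over 18 libraries. Points are means, lines run from the lowest to the highest library, and colours are the subunit in the symbol. Mrpl33, Mrps6 and Mrpl30 lead at 269 to 326 TPM, and Mrps30 is last at 7.69 TPM with the longest line.

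Reads that could come from other genes touch part of the set. Exon bases are shared with another gene by 32 members, 27 of them with a gene on the opposite strand, and Mrpl23, Mrpl48 and Mrps36 have named pseudogenes. Beside those given above, Mrpl12 shares 200 bases with Gm16755, Mrpl24 594 with Rrnad1, Mrpl48 708 with Rab6a and Mrps18b 638 with Gm16279 on the other strand. The 42 members with no shared exon bases and no named pseudogene gave these counts: 14 rose and 2 fell in Th17p cells (33.3% and 4.76%, against 15.9% and 17.1% of all genes), and 19 rose and 5 fell in Th17n cells (45.2% and 11.9%, against 22.8% and 23.7%). In iTreg cells 18 rose and 5 fell under TMM scaling (42.9% and 11.9%, against 18.3% and 19.2%). The medians of the 42 were 0.10, 0.19 and 0.15 in Th17p, Th17n and iTreg cells, against 0.17, 0.20 and 0.15 for all 76.

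Other genes that serve the mitoribosome were described from lists of named genes. Beside their counts stand the shares of all genes that rose and fell under TMM scaling: 15.9% and 17.1% in Th17p, 22.8% and 23.7% in Th17n, and 18.3% and 19.2% in iTreg cells. Without scaling factors the iTreg shares of all genes were 11.1% and 28.5%. Many of the counts below are near these shares. Of 6 mitoribosome proteins with other symbols, none rose and 2 fell in Th17p cells, 1 rose and 3 fell in Th17n cells, and 1 rose and none fell in iTreg cells under TMM scaling (none and 3 without scaling factors). Gadd45gip1, a large subunit protein, fell by 0.43 in Th17p and 0.57 in Th17n cells, and Ict1, a ribosome rescue factor built into the large subunit, fell by 0.36 and 0.58. Ptcd3, a small subunit protein, rose by 0.65 in Th17n and 0.34 in iTreg cells, the latter on the TMM scale. Of 26 assembly factors 7 rose in each lineage (26.9%, against 15.9%, 22.8% and 18.3% of all genes) and 1, 4 and 2 fell in Th17p, Th17n and iTreg cells, where iTreg cells had 3 that rose and 7 that fell without scaling factors. Trub2, a pseudouridine synthase, rose by 0.64, 1.30 and 0.81 in that order. Fastkd2, an RNA-binding assembly factor, rose by 0.86, 1.42 and 0.77, and Rnmtl1, a methyltransferase of the large ribosomal RNA, by 0.83, 1.11 and 0.57. Mtg1, a GTPase of large subunit assembly, fell by 0.49, 0.85 and 0.81. Among iTreg values in these lists, those of Ptcd3, Oxa1l, Hars2, Nrf1 and Dhps were not called without scaling factors or on log2(TPM + 1), and those of Fastkd2, Pprc1 and Dohh not on log2(TPM + 1).

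Of 14 mitochondrial translation factors 2 rose (14.3%) and 1 fell in Th17p, 3 (21.4%) and 2 in Th17n, near the 15.9% and 22.8% of all genes that rose, and 6 and 2 in iTreg cells (2 and 2 without scaling factors). The elongation factors Gfm1 and Tufm rose in each lineage, by 0.63, 0.73 and 0.61 and by 0.30, 0.29 and 0.58. Oxa1l, which inserts new proteins into the inner membrane, fell by 0.52 in Th17n and rose by 0.43 in iTreg cells on the TMM scale. Mtif2, an initiation factor, fell by 0.60 in Th17p cells. Of 19 mitochondrial aminoacyl-tRNA synthetase and amidation genes 1 rose and 2 fell in Th17p, 2 and 2 in Th17n, and 4 and 4 in iTreg cells (1 and 4 without scaling factors). Mars2 rose by 0.53, 1.17 and 0.64, and Fars2 fell by 0.36, 0.54 and 0.39. Hars2 rose by 0.36 in Th17n and 0.44 in iTreg cells, and Nars2 fell by 0.49 in Th17p cells.

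Of 9 genes of mitochondrial DNA transcription and replication 2 rose and 3 fell in Th17p cells, 2 and 3 in Th17n, and 1 and 1 in iTreg cells. Polrmt, the mitochondrial RNA polymerase, rose by 0.73, 1.02 and 1.09. Peo1, the mitochondrial DNA helicase, fell by 0.56 and 0.42 and Ssbp1, the single-strand binding protein, by 0.47 and 0.30 in Th17p and Th17n cells. Polg2 fell by 0.66 in Th17n and Tefm by 0.56 in iTreg cells. Of 9 regulators of nuclear genes for mitochondria 2, 2 and 4 rose in Th17p, Th17n and iTreg cells and none fell (2 rose and 1 fell in iTreg cells without scaling factors). The 2 of 9 in the Th17 lineages (22.2%) are near the shares of all genes, 15.9% and 22.8%. Pprc1, a coactivator of the PGC-1 family, rose by 0.63, 0.88 and 0.50, and Nrf1 by 0.36, 0.57 and 0.35. Ppargc1b rose by 1.11 in iTreg cells, while Tfe3 and Yy1 were not called. Of 4 hypusination genes 3 rose in each lineage. Without scaling factors 2 rose in Th17p and 2 in iTreg cells, and on log2(TPM + 1) 1 rose in iTreg cells. Dohh, the enzyme that completes hypusine, rose by 0.56, 0.81 and 0.46, Eif5a by 0.32, 0.43 and 0.90, and Dhps, which starts it, by 0.30, 0.29 and 0.28.

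**Figure D5:**
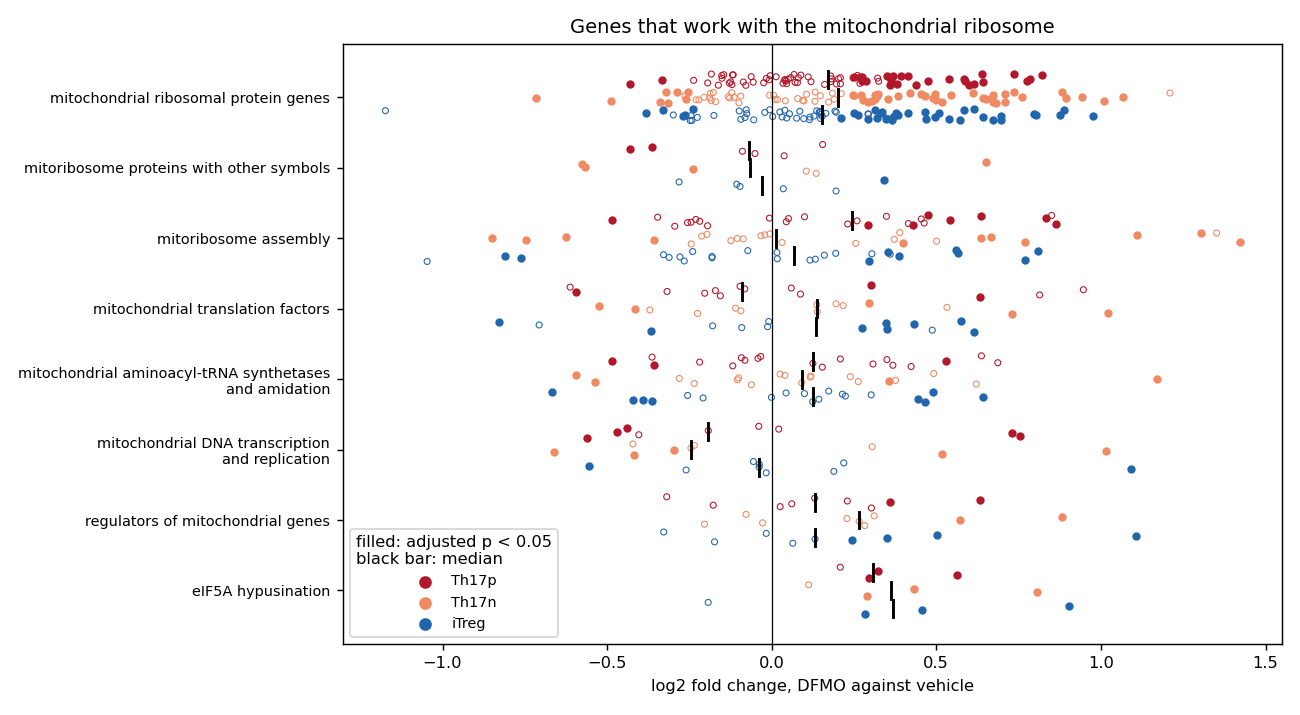
Log2 fold change with DFMO (x axis) of the 76 mitochondrial ribosomal protein genes and of 7 lists of genes that work with them (y axis), in edgeR with TMM scaling. Filled points passed an adjusted p under 0.05 and black bars are medians. The ribosomal protein genes have medians of 0.15 to 0.20, and the lists hold genes on both sides of 0. Without scaling factors the iTreg median of the ribosomal protein genes is -0.01.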

How the data were processed

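The authors deposited a table of expected counts and TPM per gene and sequencing run, made with Bowtie2 and RSEM on GRCm38.p3 per the submitters' processing notes. Tool versions, the annotation and the library strand are not stated in those notes. The 36 samples are 18 libraries sequenced in 2 runs, which were summed and rounded (12.2% of the deposited expected counts were not whole). edgeR 4.0.16 in R 4.3.3 was fitted to all 18 libraries (TMM scaling, filterByExpr by group, robust quasi-likelihood, Benjamini-Hochberg adjustment), without a term for animal. DESeq2 1.42.0, no scaling factors, no filter, limma 3.58.1 on log2 of the deposited TPM + 1, animal as a replicate block, only the groups compared, either run alone and each animal left out were alternatives. The labels give the animal of each library: libraries of 1 animal deviated from their group means together (median r = 0.121 over 45 pairs, lowest 0.0093). Between animals the median r was -0.063. That value follows from the first and adds no support, since deviations from a group mean cancel within the group. Within a library the runs differed by 1.15 to 1.54 times the counting variance, and animals by 3.64 to 12.1 times.

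Genes named are, per comparison, up to 5 called rises and 5 called falls of the largest size with 1 sign in all animals (up to 5 smallest p for differences of effects), genes called alike in all lineages, the 3 highest and 3 lowest by TPM, 15 genes named for their role, and up to 3 per pathway list and comparison. The members and lists were chosen with earlier results of these data known. Positions are from GENCODE M21 and promoters from RefSeq. Mrp63 and 12 other list names, some of them second names of listed genes, had no row in the table or did not pass the filter.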

Additional observations from a re-analysis of the deposited data

Results flagged for a closer look

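With 3 animals per group no single library was tested against its group. Each result here is a DFMO effect that differed between lineages by a test of the difference itself (edgeR's quasi-likelihood test, Benjamini-Hochberg adjustment over all genes). Between Th17n and Th17p cells, the Mrps2 effect was higher in Th17n by 0.70 (adjusted p = 0.0112) and the Mrpl45 effect differed by -0.38 (0.0495). Between Th17n and iTreg cells, the effect was higher in Th17n for Mrps2 by 0.68 (0.00574) and for Mrps18b by 0.48 (0.0151). In the same comparison it differed by -0.56 for Mrpl24 (0.0198), -0.62 for Mrpl33 (0.0416), -0.45 for Mrpl45 (0.0101), -0.59 for Mrpl48 (0.0157) and -0.43 for Mrps33 (0.0348). Between Th17p and iTreg cells, Mrpl33 differed by -0.73 (0.0285). Those of Mrps2, of Mrps18b and of Mrpl33 between Th17p and iTreg cells were also called without scaling factors and on log2(TPM + 1), and the others were not.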

How the results depend on the processing

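Of 193 results for single genes, those that kept their direction and call numbered 160 without scaling factors, 151 on log2(TPM + 1), and 145, 137 and 146 without animals 1, 2 and 3. In iTreg cells, DFMO raised 31 members with TMM but 16 without scaling factors and 15 on log2(TPM + 1), and lowered 5, 14 and 18, with medians of 0.15, -0.0129 and -0.0599. Of all genes 18.3%, 11.1% and 8.88% rose and 19.2%, 28.5% and 29.8% fell there. The same settings, in that order, gave 1 and 1 higher and 15 and 18 lower for Th17n against Th17p cells in vehicle (median -0.16 and -0.22), 38 and 44 higher and 1 and 1 lower for iTreg against Th17n (0.28 and 0.30), 7 and 23 higher and 0 and 0 lower for the Th17n minus iTreg difference of effects (0.20 and 0.32), and 1 and 8 higher for Th17p minus iTreg (0.23 for the second). Without scaling factors iTreg against Th17p cells in vehicle had 15 higher (median 0.14), against 18.9% of all genes. The Th17n minus Th17p difference of effects had 3 higher without scaling factors (3.45% of all genes) and 0 lower under both settings. In Th17n cells DFMO lowered 3 members on log2(TPM + 1), with a median of 0.30, and 5 in run 2 (19.6% and 23.0% of all genes). Without a filter 3 fell in iTreg cells (11.5% of all genes) and 4 were higher in iTreg than Th17p vehicle cells (9.38%). The Th17n minus Th17p difference then had 0 lower (1.53%). With only the groups compared, 2 fell in iTreg cells (15.3% of all genes) and 2 were higher in iTreg than Th17p vehicle cells (13.4%). Another 2 results were higher effects in Th17n than Th17p cells (3.97%), and 3 were lower ones in Th17n than iTreg cells (5.64%). In run 1 and run 2 alone, 1 and 1 were higher in Th17n than Th17p vehicle cells (8.88% and 8.61% of all genes). The Th17n minus Th17p difference of effects had 0 and 0 lower (1.86% and 1.99%) and 2 higher in run 1 (2.36%). In run 1, 4 were higher in iTreg than Th17p vehicle cells (13.1%), and in run 2, 2 had a lower effect in Th17n than iTreg cells (5.74%). DESeq2 gave 3 higher for Th17n minus Th17p and 3 lower for Th17p minus iTreg effects (3.93% and 5.33% of all genes).

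With animal as a replicate block, DFMO raised 26, 37 and 32 members and lowered 2, 9 and 7 in Th17p, Th17n and iTreg cells, 4 had a higher effect in Th17n than iTreg cells, and Th17p minus iTreg had 1 higher and 2 lower. Other counts under the block stayed within 1.5 times those without it.

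Leaving out each animal gave 15 to 22 rises and 1 to 2 falls in Th17p cells, 3 to 5 falls in Th17n cells, and 16 to 28 rises and 2 to 2 falls in iTreg cells. In vehicle it gave 0 to 1 higher and 3 to 4 lower for Th17n against Th17p (3.84% to 6.36% and 4.33% to 7.19% of all genes). For iTreg against Th17n it gave 5 to 15 and 1 to 2 (11.4% to 14.7% and 11.9% to 15.7%). For iTreg against Th17p it gave 1 to 4 and 1 to 3 (9.37% to 10.7% and 10.2% to 12.4%). For differences of effects it gave 0 to 0 and 0 to 0 for Th17n minus Th17p (0.156% to 1.34% and 0.0779% to 1.54% of all genes). Th17n minus iTreg had 0 to 2 and 0 to 3 (1.16% to 4.51% and 1.24% to 5.76%). Th17p minus iTreg had 0 to 1 lower (0.58% to 2.41%).

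Among the 193 results for single genes (those chosen by the naming rule, not all members), 35 values changed sign, none of them called. In Th17p cells these were Mrpl44 (-0.0011 without scaling factors, -0.012 in run 2), Mrps2 (-0.016 with DESeq2, -0.026 without scaling factors, -0.0017 with only the groups compared, -0.0081 in run 2, -0.010 to 0.026 with each animal left out), Mrps5 (-0.0089 in run 2, -0.053 without animal 3) and Mrps16 (-0.022 to 0.21 with each animal left out). In Th17n cells Mrps16 had 0.0023 without scaling factors, 0.084 on log2(TPM + 1), 0.0032 with only the groups compared, 0.041 in run 2 and -0.099 to 0.14 with each animal left out. In iTreg cells, without scaling factors and on log2(TPM + 1), Mrpl24 had -0.089 and -0.14, Mrps2 -0.14 and -0.18, Mrps34 -0.12 and -0.18, and Mrps18c -0.020 and -0.080, and on the second alone Mrps18b had -0.030 and Aurkaip1 -0.023. In run 2, Mrps2 had -0.034, Mrps5 0.020 and Mrps34 -0.055, and in run 1 Polg2 had 0.048. With each animal left out, Mrpl24 reached -0.040, Mrps2 -0.16, Mrps5 ran from -0.029 to 0.016, Mrps34 from -0.022 to 0.13 and Mrps18a from -0.087 to 0.035. Outside the 193, Mrpl28, which rose by 0.21 in iTreg cells with TMM, had the opposite sign on log2(TPM + 1). The causes were not tested.

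The fits rest on 3 animals per group, and Mrps30, with as few as 29 counts in a library, is the least precise member.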
